A study of Mus musculus with 8 samples.

Results

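The proteasome genes described here encode the constitutive 26S proteasome, the protease complex that degrades ubiquitin-tagged proteins in every cell. The 36 members are the protein-coding genes of the count table whose GENCODE M21 symbol begins with Psma, Psmc or Psmd, or is one of Psmb1 to Psmb7, out of 49315 genes in the table. The interferon-inducible catalytic subunits Psmb8, Psmb9 and Psmb10 were left out of the members and serve as a comparison. The symbol rule took in 2 genes that stand apart. Psmc3ip encodes a meiotic recombination factor and is no proteasome subunit, and Psma8 encodes an alpha subunit known from the testis.

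The cells were bone marrow-derived macrophages (BMDMs), which are primary cells cultured from C57BL/6 marrow with the growth factor M-CSF at 10 ng/ml. Both groups were lipofected with 25 nM of gapmeR, an antisense oligonucleotide through which RNase H cuts the matching RNA. The groups were 4 libraries with negative control #1 (replicates 2, 5, 6 and 7) and 4 with gapmeR against the long noncoding RNA MAARS (replicates 9, 11, 13 and 15). Each was sequenced from ribodepleted total RNA. The labels do not say whether the libraries of a group came from separate mice or cultures, nor the age of the mice, so the p-values measure the spread between these samples, which may be technical. The labels give the same treatment, MAARS gapmeRs, for all 4 libraries of that group and name no single oligonucleotide. The effect of lowering MAARS and any other effect of the gapmeR treatment therefore cannot be told apart.

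In the 26S proteasome, outer rings of alpha subunits and inner rings of beta subunits form the 20S core, a barrel that carries its proteolytic sites inside. The 19S regulatory particle caps the barrel. Its base holds the ring of ATPases that unfold substrates and the subunits that bind ubiquitin, and its lid holds the deubiquitinase that removes the ubiquitin chain. In cells exposed to interferon-gamma, and constantly in many immune cells, the immunoproteasome subunits replace the constitutive catalytic subunits in newly made cores, which changes the peptides offered to MHC class I molecules.

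The promoters of the members are shown because many of these genes moved in the same direction. They are known for antioxidant response elements, the sites bound by the CNC transcription factors Nfe2l1 and Nfe2l2, and for CCAAT boxes, whereas the promoters of the immunoproteasome genes are known for interferon-responsive elements. A promoter sequence from RefSeq (GRCm38.p6) was matched by symbol for 29 of the 36 members. The members Psmc3, Psmd3, Psmd7, Psma8, Psmb1, Psmb2 and Psmb7 were not matched. For Psmc5, Psma4 and Psma7, the bases after the matched start were not found near the 5′ end of a GENCODE transcript of the gene. Those windows were kept in the shares below, where Psma7 is among the members with CCAAT. The 250 bases before the transcription start are printed 5′ to 3′ in the direction of transcription for the catalytic subunits Psmb5 (chr14:54617996-54618245, minus strand) and Psmb6 (chr11:70525107-70525356, plus strand), for the ubiquitin receptor Psmd4 (chr3:95042615-95042864, minus strand), which had the smallest p of all members, and for Psmb8 (chr17:34197945-34198194, plus strand), the immunoproteasome counterpart of Psmb5. Capitals mark TGACNNNGC (the antioxidant response element) in Psmb5 and Psmb6, CCAAT and then GAAANNGAAA (the interferon-stimulated response element), both read on the opposite strand, in Psmd4, and TTCNNNGAA (the GAS element bound by STAT factors) in Psmb8.
Psmb5: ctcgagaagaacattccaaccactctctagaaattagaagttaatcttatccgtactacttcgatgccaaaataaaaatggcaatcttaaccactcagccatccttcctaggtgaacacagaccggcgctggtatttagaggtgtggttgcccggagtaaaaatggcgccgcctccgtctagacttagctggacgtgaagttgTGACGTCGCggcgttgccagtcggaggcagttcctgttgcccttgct
Psmb6: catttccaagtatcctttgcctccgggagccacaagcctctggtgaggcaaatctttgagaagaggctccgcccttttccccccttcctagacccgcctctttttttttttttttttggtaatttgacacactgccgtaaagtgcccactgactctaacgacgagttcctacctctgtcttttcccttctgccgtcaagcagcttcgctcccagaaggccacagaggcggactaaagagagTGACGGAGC
Psmd4: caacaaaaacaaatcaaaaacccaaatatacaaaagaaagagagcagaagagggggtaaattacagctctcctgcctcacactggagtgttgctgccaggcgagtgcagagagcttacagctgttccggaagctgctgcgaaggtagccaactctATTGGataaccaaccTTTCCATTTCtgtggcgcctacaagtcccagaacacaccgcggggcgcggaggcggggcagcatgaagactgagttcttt
Psmb8: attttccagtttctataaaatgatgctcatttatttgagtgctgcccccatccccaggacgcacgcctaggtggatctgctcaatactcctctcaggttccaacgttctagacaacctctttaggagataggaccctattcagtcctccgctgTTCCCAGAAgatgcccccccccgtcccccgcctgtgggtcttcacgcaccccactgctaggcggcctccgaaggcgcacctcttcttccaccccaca

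The antioxidant element of Psmb5 lay at bases -47 to -39 before the start and that of Psmb6 at -9 to -1. In the windows of the matched members, searched on both strands, TGACNNNGC was found in 5 of 29 (17.2%), namely Psmb5, Psmb6, Psmc6, Psmd9 and Psmd12, against 11.5% of the 27025 genes with a promoter sequence. CCAAT was found in 12 of 29 (41.4%) against 37.5% of all. GAAANNGAAA was found in Psmb3, Psmd4 and Psmd9 (10.3%) against 3.5% of all, and TTCNNNGAA in 0 of 29 against 8.1% of all. In the 3 immunoproteasome genes TTCNNNGAA was found in 1, Psmb8, and GAAANNGAAA in 0. These shares describe letters in the windows and none was tested. The 4 motifs were chosen with the gene changes known.

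MAARS, listed as Gm14461 (chr2:78237547-78302230, plus strand, GRCm38), checks the labels. Its level in CPM (counts divided by the library total after TMM normalization) was 12.2, 15.1, 12.98 and 12.2 in the control libraries and 7.71, 6.41, 7.31 and 5.85 in the MAARS gapmeR libraries, with no overlap. The log2 fold change, here and below always MAARS gapmeR over control gapmeR and given ± SE, was -0.95 ± 0.112 (edgeR quasi-likelihood adjusted p = 5.80e-05). Library totals ran from 19287279 to 20567123 counts in the control group and from 20839671 to 24541205 in the MAARS gapmeR group, so every MAARS gapmeR library was the deeper. The first principal component held 74% of the variance and separated the groups. The 7 macrophage markers examined, such as Adgre1, Cd68 and Lyz2, summed to 13760 to 16990 CPM in the control libraries and 16850 to 20080 CPM in the MAARS gapmeR libraries. Lyz2 made up most of this sum (9402 ± 1240 and 13170 ± 1172 CPM, SD, n = 4 each), and the list did not move as one, with 4 of 7 higher by edgeR, Fcgr1 (log2 fold change -2.09, adjusted p = 7.12e-06) and Cd68 (-0.34, adjusted p = 1.64e-04) lower and Adgre1 not called. The 4 T cell markers stayed at or under 0.119 CPM in sum in every library and the 4 erythroid markers at or under 0.331 CPM, with the T cell gene Cd3g at 0 in all 8. The 4 B cell markers summed to 1.33 to 2.41 CPM in the control group and 1.37 to 1.91 CPM in the MAARS gapmeR group. The 5 fibroblast markers summed to 457 to 1043 CPM and 716 to 1230 CPM, the 6 granulocyte markers to 84.4 to 244 CPM and 88.7 to 141 CPM, the 4 dendritic cell markers to 1.08 to 2.38 CPM and 1.18 to 1.39 CPM, and the 3 endothelial markers to 17.1 to 21.7 CPM and 7.58 to 8.56 CPM, in the same order of groups. Of the endothelial genes Kdr alone was called (log2 fold change -1.54, adjusted p = 4.19e-06), and Pecam1 (-0.19, adjusted p = 0.545) and Cdh5 (-0.69, adjusted p = 0.121) did not pass. The part of these other markers, and of depth, in the results on the members was not tested, except where counts thinned to 1 common total are given.

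Across the proteasome, the change after MAARS gapmeR was small, and every member that passed the test was lower. With edgeR's quasi-likelihood test and Benjamini-Hochberg adjustment over 13051 genes (threshold 0.05), 28 of the 36 members were lower in the MAARS gapmeR group and 0 were higher. All 36 passed the filter on low counts, although Psma8 and Psmc3ip were near 2 to 3 CPM. Among all genes tested, 45.4% were called, 24.0% as lower and 21.3% as higher. The members called lower are therefore 77.8% of the members beside 24.0% of all genes. No member reached an unadjusted p under 0.05 with a higher estimate. DESeq2 and limma-voom also called 28 lower and 0 higher, beside 22.7% and 24.1% of all genes called lower. The estimate was below 0 for 36 of 36 members, and the members' median log2 fold change was -0.25 beside 0.01 for all genes tested. With upper-quartile factors and with total counts only, the estimate was below 0 for 31 of 36. Under upper-quartile scaling the members called lower were 22 beside 18.2% of all genes, and calls over all genes were then 39.6% lower, against 53.0% with TMM factors.

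The sizes were narrow. Falls among the 28 called members ran from 8.25% to 25.5% of the control level, and the log2 fold change of every member lay within 0.5 of 0, whereas 20.96% of all genes tested lay outside that range. In 27 members the 4 MAARS gapmeR libraries all lay below the 4 control libraries, a pattern found in 22.8% of the genes tested. Psmb6 was the called member whose groups overlapped. Fewer transcripts of these genes per cell and a different mix of cells cannot be told apart in such bulk RNA.

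**Figure D1:**
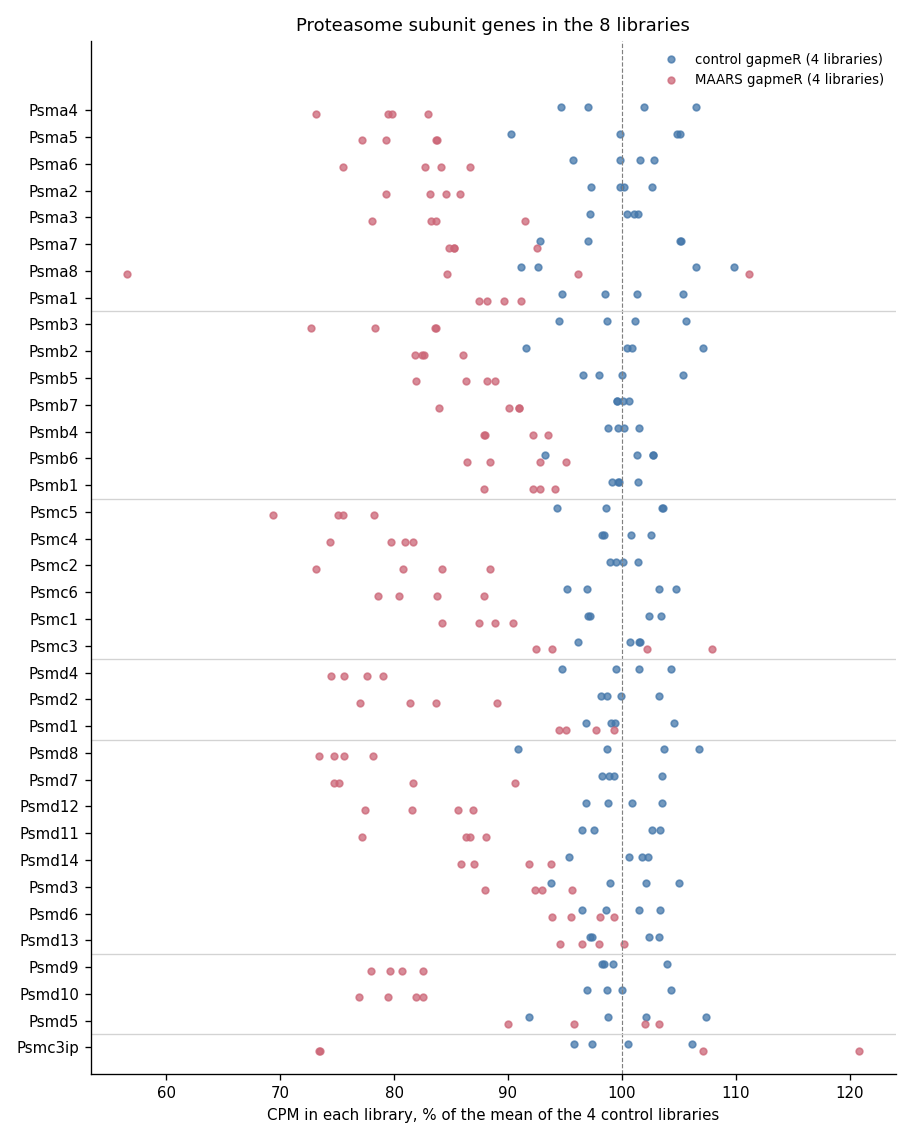
CPM of the 36 members in each library as a percentage of the mean of the 4 control libraries, ordered by sub-complex (grey lines) and by fold change. Blue points are control gapmeR and red points MAARS gapmeR libraries; the red points lie left of all blue points in 27 members, and the 2 colours mix in Psmb6, Psmc3, Psmd1, Psmd3, Psmd5, Psmd6, Psmd13, Psma8 and Psmc3ip.

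The members' summed level was 4683, 4671, 4707 and 4647 CPM in the control libraries and 3821, 4070, 4093 and 3973 CPM in the MAARS gapmeR libraries, a mean of 4677 ± 24.98 against 3989 ± 124 (SD, n = 4 each), which is 14.7% lower. Control libraries were tightly grouped and the MAARS gapmeR libraries more spread, with replicate 9 the lowest. As a share of raw counts, with no scaling factor, the members took 0.446% to 0.468% of each control library and 0.388% to 0.417% of each MAARS gapmeR library, again without overlap. MAARS gapmeR replicate 9 was the lowest of its group in 22 of the 36 members. Without it, 26 members were called lower, beside 22.0% of all genes, and the members' median log2 fold change was -0.21.

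The summed levels of core and cap were lower by similar proportions, with no test run on the sums. The 15 genes of the 20S core summed to 1750, 1787, 1821 and 1781 CPM in the control group and 1478, 1535, 1581 and 1533 CPM in the MAARS gapmeR group (the mean 14.2% lower), and the 17 genes of the 19S base and lid to 2811, 2761, 2766 and 2744 CPM against 2238, 2427, 2406 and 2339 CPM (15.1% lower). The groups do not overlap in either sum. The ratio of the core sum to the cap sum was 0.623 to 0.658 in the control libraries and 0.633 to 0.660 in the MAARS gapmeR libraries, so the ranges of this ratio overlapped. By sub-complex the summed level was lower by 16.2% for the alpha ring, 11.9% for the beta ring, 14.9% for the ATPases, 14.5% for the other base subunits, 15.7% for the lid and 14.0% for the assembly chaperones.

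**Figure D2:**
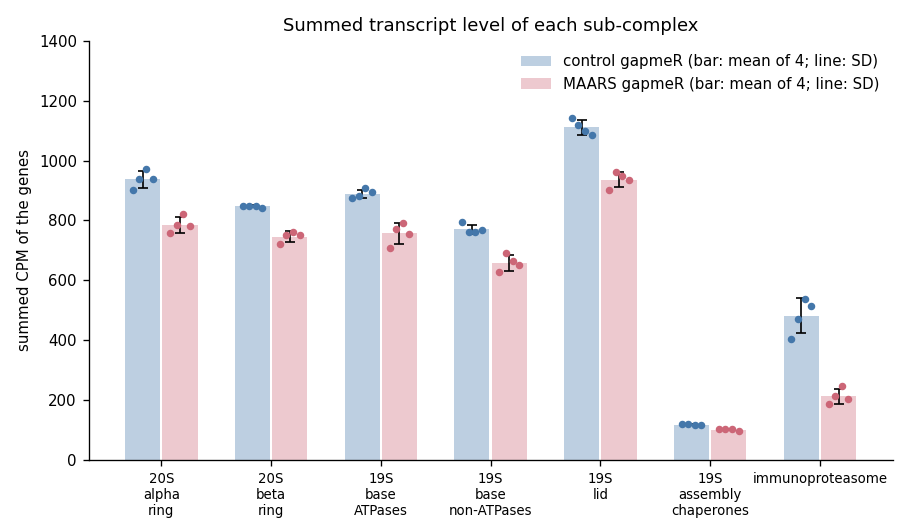
Summed CPM of the genes of each sub-complex and of the 3 immunoproteasome genes. Bars are means of 4 libraries, black lines SDs and points single libraries (blue control gapmeR, red MAARS gapmeR); the alpha ring averages 938 and 786 CPM and the immunoproteasome genes 482 and 214 CPM.

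The alpha ring gates the entry of substrates into the core. Of its 8 members, 7 were lower and 1, Psma8, was not called. The called log2 fold changes were Psma4 -0.34, Psma5 -0.30, Psma6 -0.28, Psma2 -0.26, Psma3 -0.25, Psma7 -0.20 and Psma1 -0.17. Psma4, with the smallest p of the ring, was at 137, 140.2, 154 and 147 CPM in the control libraries and 106, 115, 119.9 and 115 CPM in the MAARS gapmeR libraries. The 2 groups do not overlap, and the log2 fold change was -0.34 ± 0.0531 (edgeR adjusted p = 3.60e-04). Psma8 was at 2.20, 1.89, 2.27 and 1.92 CPM against 1.75, 1.99, 2.30 and 1.17 CPM. Its groups overlapped, its counts were few, and its log2 fold change of -0.20 ± 0.217 did not pass the test (adjusted p = 0.484).

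All 7 members of the beta ring, which lines the inner chamber, were lower, with a median log2 fold change of -0.17 beside -0.26 in the alpha ring. Psmb3, a structural subunit with the smallest p of the ring, was at 90.1, 86.3, 96.5 and 92.4 CPM in the control libraries and 66.4, 71.5, 76.4 and 76.4 CPM in the MAARS gapmeR libraries, a log2 fold change of -0.33 ± 0.0565 (edgeR adjusted p = 7.21e-04). The other structural subunits were Psmb2 at -0.26, Psmb4 at -0.15 and Psmb1 at -0.12. The calls of Psmb4 and Psmb1 were lost with upper-quartile scaling and with total counts only, that of Psmb4 also with the offset on exonic length, and that of Psmb1 also without the filter, without control gapmeR replicate 2 (log2 fold change -0.11, adjusted p = 0.0613) or without MAARS gapmeR replicate 9 (-0.11, adjusted p = 0.0555).

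The 3 catalytic subunits changed by 9.31% to 13.7%. Psmb5, which carries the chymotrypsin-like activity and is the main target of the drug bortezomib, was at 99.4, 92.5, 91.1 and 94.4 CPM against 77.3, 83.8, 83.2 and 81.4 CPM. No MAARS gapmeR library reached the lowest control library, and the log2 fold change was -0.21 ± 0.0462 (edgeR adjusted p = 0.00323). The call was lost with the offset on exonic length (-0.13, adjusted p = 0.0610). Psmb7, with the trypsin-like activity, was at 109, 108, 108 and 108 CPM against 97.6, 98.6, 90.99 and 98.6 CPM. Its control libraries lay close together and above all MAARS gapmeR libraries, and the log2 fold change was -0.17 ± 0.0417 (adjusted p = 0.00699). This call was lost with upper-quartile factors (-0.10, adjusted p = 0.0578) and with total counts only (-0.10, adjusted p = 0.0757). Psmb6, with the caspase-like activity, was at 128, 128, 126 and 116 CPM against 107, 109.7, 118 and 115 CPM. Control gapmeR replicate 7 fell among the MAARS gapmeR libraries, and the log2 fold change of -0.14 ± 0.0494 passed narrowly (adjusted p = 0.0364). The call of Psmb6 was lost in 9 of the 18 alternative fits, among them those without control gapmeR replicate 2, 5 or 6 and those without MAARS gapmeR replicate 9 or 11 (adjusted p 0.0661 to 0.0921), with log2 fold changes over all alternatives from -0.17 to -0.08. Exons of Psmb5 overlap the microRNA gene Mir686 on the same strand over 12.1% of their length, and those of Psmb7 overlap Nek6 on the opposite strand over 11.8%. Reads in the Mir686 stretch could belong to either gene under any strand setting. Whether the counting used strand is not given in the sources used here, so reads in the Nek6 stretch could also belong to either gene.

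The ATPases thread substrates into the core. Of the 6, 5 were lower, Psmc5 -0.42, Psmc4 -0.34, Psmc2 -0.29, Psmc6 -0.27 and Psmc1 -0.19, and Psmc3 was not called. Psmc5 had the largest fall of all members, 25.5%, from 124, 118, 130.0 and 129.9 CPM to 87.03, 94.2, 98.2 and 94.7 CPM. The groups lay apart, and the log2 fold change was -0.42 ± 0.0507 (edgeR adjusted p = 6.14e-05). Psmc3 sits in the same ring and was at 159.5, 158, 159.7 and 151 CPM against 145, 161, 169.6 and 148 CPM. MAARS gapmeR libraries lay both above and below the control libraries, and the log2 fold change was -0.01 ± 0.0543 (adjusted p = 0.867), with a positive estimate under 5 of the alternatives. The difference between the changes of Psmc5 and Psmc3 was not tested.

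Among the 3 other base subunits, the ubiquitin receptor Psmd4 had the smallest p of all members. It was at 125, 119, 128 and 131 CPM in the control libraries and 93.8, 97.8, 95.2 and 99.5 CPM in the MAARS gapmeR libraries. The groups lay well apart, with a log2 fold change of -0.38 ± 0.0442 (edgeR adjusted p = 4.84e-05). Psmd2, a large scaffold that docks ubiquitin shuttles and the most abundant member in CPM, changed by -0.27 on the log2 scale (adjusted p = 0.00117). Psmd1, the scaffold that holds the receptor Adrm1, was at 218, 207, 202 and 208 CPM against 199, 208, 204 and 197 CPM, with overlapping groups and a log2 fold change of -0.05 ± 0.0416 (adjusted p = 0.36).

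In the lid, 5 of 8 members were lower. These were Psmd8 -0.41, Psmd7 -0.31, Psmd12 -0.27, Psmd11 -0.24 and the deubiquitinase Psmd14 -0.16. Psmd8 was at 434, 421, 401 and 369 CPM against 298, 318, 304 and 307 CPM, a fall of 24.5% with no overlap (log2 fold change -0.41 ± 0.0543, edgeR adjusted p = 1.34e-04). The call of Psmd14 was lost with upper-quartile scaling, total counts only and the offset on exonic length (adjusted p 0.0585 to 0.148). Psmd3 at -0.12 (adjusted p = 0.0674) missed the threshold and passed it without control gapmeR replicate 5 (adjusted p = 0.0256) and with an offset on exonic length (0.0271). Psmd6 was at -0.05 and Psmd13 at -0.04. Psmd13 had the highest p of the lid, at 115, 116, 109.5 and 109.7 CPM against 109, 110.4, 107 and 113 CPM, with 2 MAARS gapmeR libraries inside the control range (log2 fold change -0.04 ± 0.0421, adjusted p = 0.468). Its exons overlap Sirt3 on the opposite strand over 10.1% of their length.

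The assembly chaperones Psmd5, Psmd9 and Psmd10 escort ATPases during assembly of the base and leave the finished complex. Psmd9 was at 40.2, 42.5, 40.6 and 40.2 CPM against 32.5, 31.9, 33.7 and 32.98 CPM, without overlap (log2 fold change -0.32 ± 0.0476, edgeR adjusted p = 2.87e-04), and Psmd10 (gankyrin) was at -0.32 on the log2 scale (adjusted p = 4.16e-04). Psmd5 was at 42.04, 38.7, 35.97 and 39.98 CPM against 39.97, 40.4, 37.5 and 35.2 CPM, with groups that interleave and a log2 fold change of -0.03 ± 0.0643 (adjusted p = 0.700). The exons of Psmd9 overlap the gene Gm26745 on the opposite strand over 25.5% of their length. Psmc3ip, which is outside the proteasome, was at 2.71, 3.01, 2.76 and 2.85 CPM against 2.08, 3.42, 3.03 and 2.08 CPM (log2 fold change -0.09 ± 0.19, adjusted p = 0.728). Its exons overlap Mlx on the opposite strand over 21.2% of their length.

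**Figure D3:**
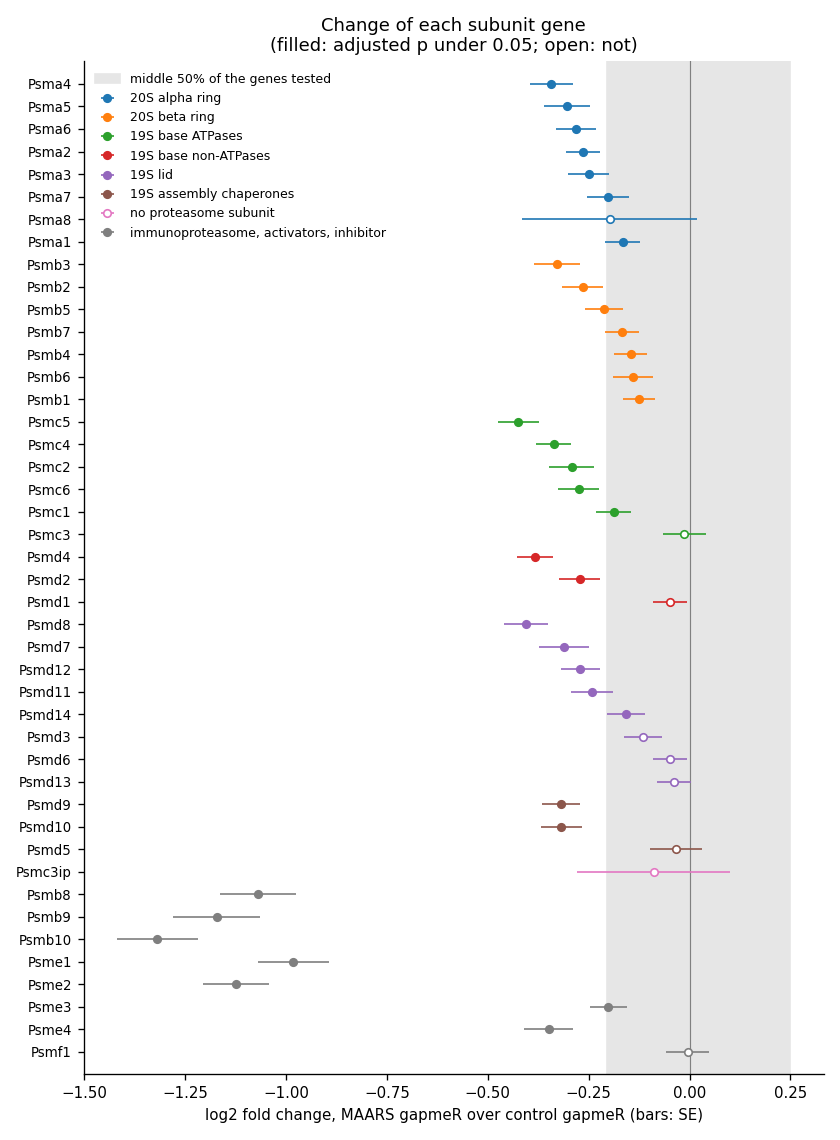
Log2 fold change (MAARS gapmeR over control gapmeR) of each member and of the immunoproteasome, activator and inhibitor genes, with SE bars, coloured by sub-complex. Filled points passed the adjusted p of 0.05 and open points did not; the members lie between -0.42 and -0.01, and Psmb8, Psmb9, Psmb10, Psme1 and Psme2 lie at or below -0.98. The grey band is the middle 50% of all genes tested, -0.21 to 0.25.

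Compared per length, the beta genes were the closest to each other in level among the sub-complexes. In control CPM per kb of the principal transcript, the 7 beta genes lay between 90.0 (Psmb1) and 155 (Psmb6), a range of 1.73-fold, and the alpha genes other than Psma8 between 46.1 (Psma3) and 138 (Psma7), 2.99-fold. The ATPases lay between 56.4 (Psmc6) and 140 (Psmc1), 2.48-fold. The lid ranged from 30.7 (Psmd11) to 264 (Psmd8) around a median of 60.4, so that Psmd8 stood above the rest of the lid. The chaperones lay lower, from 8.91 (Psmd5) to 27.3 (Psmd10). With the length of all annotated exons in place of the principal transcript the beta genes spread over 3.32-fold, the alpha genes over 3.4-fold and the ATPases over 3.93-fold.

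The immunoproteasome subunits, which replace the catalytic subunits, fell much further than the subunits they replace. Psmb8 was at 191, 208, 234 and 230.4 CPM against 86.1, 106, 119.7 and 99.3 CPM (log2 fold change -1.07 ± 0.0951, edgeR adjusted p = 9.54e-06). Psmb9 was at -1.17 ± 0.107 on the log2 scale (adjusted p = 1.12e-05) and Psmb10 at -1.32 ± 0.0997 (adjusted p = 5.27e-06). Every MAARS gapmeR library lay below every control library for each of these genes. Exons of Psmb8 overlap another gene on the opposite strand over 14.7% of their length.

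The difference between each pair was tested within libraries, as the log2 ratio of counts per kb of exon. Psmb8 over Psmb5 was 0.511, 0.598, 0.684 and 0.649 in the control libraries and 0.296, 0.338, 0.382 and 0.324 in the MAARS gapmeR libraries. Each MAARS gapmeR ratio was below the lowest control ratio, and the log2 ratio differed by -0.86 ± 0.119 (SE). Psmb9 over Psmb6 went from 0.399 ± 0.0634 to 0.194 ± 0.0186 (SD, n = 4 each), a log2 difference of -1.03 ± 0.138 (SE). Psmb10 over Psmb7 went from 3.15 ± 0.471 to 1.42 ± 0.179 (SD, n = 4 each), a log2 difference of -1.14 ± 0.143 (SE). In each of the 3 pairs compared the two-sided exact permutation p was 0.0286, also after adjustment over the 3 pairs, which is the smallest that 4 against 4 libraries can give. The annotated length and the library scaling cancel in the difference, whereas the level of a ratio does depend on the annotated length. A trend with gene length that differs between libraries would not cancel. In plain counts the mean control ratios were 2.30, 0.780 and 1.57 in the same order of pairs.

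**Figure D4:**
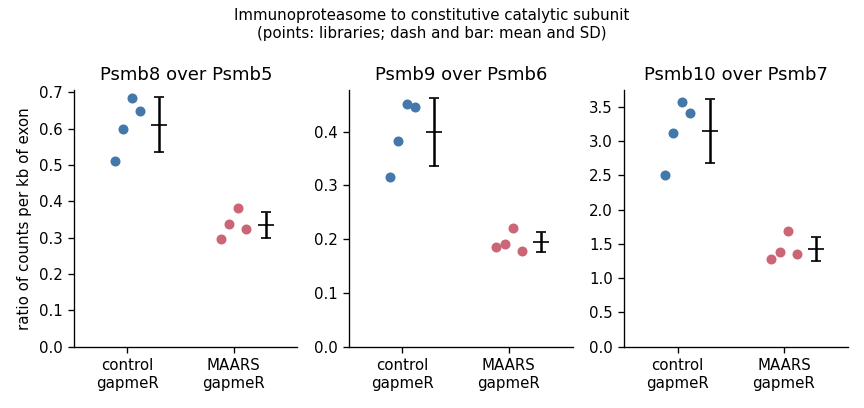
Ratio of counts per kb of exon between each immunoproteasome subunit and the constitutive catalytic subunit it replaces, in the 8 libraries (blue control gapmeR, red MAARS gapmeR), with mean and SD beside the points. In all 3 pairs the red points lie below the blue points, for Psmb8 over Psmb5 at 0.296 to 0.382 against 0.511 to 0.684.

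The other genes of the pathway moved unevenly. Their counts stand beside 24.0% of all genes tested called lower and 21.3% called higher, and no difference between shares was tested. Of the proteasome activators and inhibitor, 4 of 5 were lower (median log2 fold change -0.35). The subunits of the interferon-inducible PA28 cap, Psme2 at -1.12 ± 0.0824 (edgeR adjusted p = 5.27e-06) and Psme1 at -0.98 ± 0.0885 (adjusted p = 1.04e-05), changed on the scale of the immunoproteasome genes, the nuclear activators Psme3 (-0.20) and Psme4 (-0.35) on the scale of the members, and the inhibitor Psmf1 (-0.0049, adjusted p = 0.949) did not pass the test. Of 8 other subunits and assembly factors, 4 were lower and 0 higher (median -0.24, and 0 higher at an unadjusted p under 0.05). Pomp, the maturation protein of the core, was at -0.31 ± 0.0438 (adjusted p = 1.81e-04) and the ubiquitin receptor Adrm1 at -0.28 ± 0.0505 (adjusted p = 0.00106).

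Of 13 deubiquitinases, ligases and shuttles that bind the proteasome, 8 were lower and 1, the shuttle Ubqln2, was higher (0.24, adjusted p = 0.00244), with a median of -0.15. These are 61.5% lower and 7.7% higher, beside 24.0% and 21.3% of all genes tested, and the difference was not tested. The smallest p-values were those of Ecpas, a scaffold of the 26S proteasome, at -0.52 ± 0.0486 (edgeR adjusted p = 1.19e-05) and of Zfand2a, a stress-inducible zinc finger protein, at -0.50 ± 0.0474 (adjusted p = 1.36e-05). In the ubiquitin and E1 list, the polyubiquitin gene Ubb was lower at -0.32 ± 0.0479 (adjusted p = 2.79e-04). The E1 enzyme Uba1 was at 0.01 (adjusted p = 0.878).

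The genes that act on proteasome gene expression went in both directions. Of the 8 tested, 2 were lower (25.0%) and 3 higher (37.5%), with a median of 0.10. Among all genes tested 24.0% were lower and 21.3% higher, and no difference between these shares was tested. Nfe2l3 was under the filter. Nfe2l1, the factor that raises proteasome subunit expression when the proteasome is impaired, averaged 353 ± 9.36 CPM in the control group and 322 ± 16.7 CPM in the MAARS gapmeR group (SD, n = 4 each). Its change of -0.13 ± 0.0479 on the log2 scale passed narrowly (edgeR adjusted p = 0.0421) and was not called in 9 of the 18 alternatives. Nfe2l2 (NRF2) was at -0.0005 (adjusted p = 0.995). Their small Maf partners did not move as a group, Mafk being lower (-0.47 ± 0.0698, adjusted p = 2.58e-04) and Mafg (0.24) and Maff (0.88, near 1 to 2 CPM) higher. Vcp, the segregase that helps to release Nfe2l1 from the endoplasmic reticulum, was at 448, 458, 427 and 426 CPM against 541, 535, 536 and 532 CPM. It was higher in every MAARS gapmeR library than in any control library (0.28 ± 0.0423, adjusted p = 2.72e-04).

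Complexes of related build were read beside the proteasome. The COP9 signalosome and eIF3 share the architecture of the lid, and the CCT chaperonin is another ring complex with ATPase activity. In the COP9 signalosome 4 of 10 genes were lower and 0 higher by edgeR (0 higher at an unadjusted p under 0.05; median -0.14), led by Cops4 at -0.53 ± 0.0522 (adjusted p = 1.72e-05) and the catalytic subunit Cops5 at -0.28 ± 0.0464 (adjusted p = 5.46e-04). In eIF3, 4 of 14 were lower and 2 higher (median -0.06). Its smallest p-values were those of Eif3d at -0.38 ± 0.0414 (adjusted p = 3.50e-05), whose exons overlap a gene on the opposite strand over 43.3%, and Eif3g at -0.50 ± 0.0597 (adjusted p = 5.88e-05). In the CCT chaperonin 4 of 8 were lower and 0 higher by edgeR (0 higher at an unadjusted p under 0.05; median -0.14), with Cct3 at -0.51 ± 0.043 (adjusted p = 7.70e-06) and Cct7 at -0.20 ± 0.0487 (adjusted p = 0.00612). The call of Cct7 was lost with total counts only (-0.14, adjusted p = 0.0642). These counts stand beside 28 of 36 for the proteasome members and 24.0% of all genes, and no difference between these shares was tested.

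The members' calls were read under 18 alternative fits. Of the 28 called members, 21 stayed lower in every one, and the 7 that were lost in at least 1 were Psma1, Psmb1, Psmb4, Psmb5, Psmb6, Psmb7 and Psmd14. Psma1 was lost with upper-quartile scaling (edgeR adjusted p = 0.0614). No fit called a member higher. With the counts of all libraries thinned to 1 common total, 28 members were called lower, beside 24.1% of all genes. At an adjusted p under 0.01 the members called lower were 24, beside 17% of all genes tested.

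**Figure D5:**
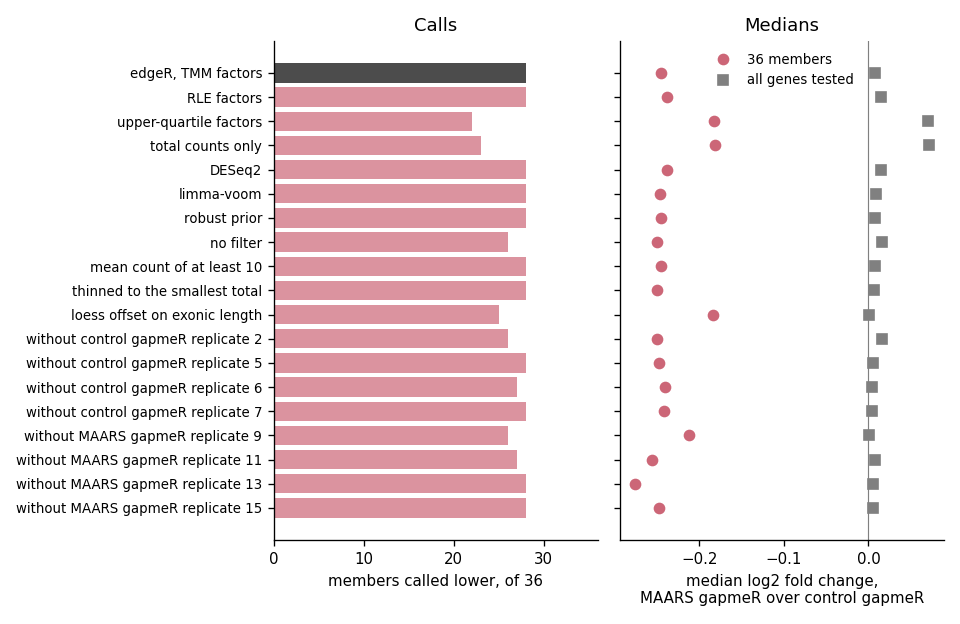
Members called lower, of 36 (left; black bar edgeR with TMM factors), and median log2 fold change of the members (red circles) and of all genes tested (grey squares) under each fit. Between 22 and 28 members were called lower, beside 12.4% to 24.3% of all genes. The members' median lay between -0.28 and -0.18 while that of all genes lay between 0.00 and 0.07.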

How the data were processed

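RNA-Seq of BMDMs with control gapmeR (n = 4) or MAARS gapmeR (n = 4) was used, grouped by the labels. Per the submitters' processing notes and the methods, the authors trimmed the reads with Trimmomatic 0.36, aligned them with STAR 2.5.2b to GRCm38 and counted them per gene with featureCounts (Subread 1.5.2). The table they deposited gives raw counts of 49315 genes that the authors had not normalized. The strand setting and the handling of reads that map to several places are not given in the sources used here, and 4 named pseudogene rows of members held at most 3 counts in any library. Library totals were 19287279 to 24541205 counts, and the spread between replicates exceeded counting error.

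The counts were analysed in R (version 4.3.3) with edgeR (4.0.16), DESeq2 (1.42.0) and limma (3.58.1). The filter filterByExpr (minimum count 10, minimum total 15) left 13051 genes. TMM factors, glmQLFit and glmQLFTest followed, with Benjamini-Hochberg adjustment over these genes. Each SE of a log2 fold change is its size divided by the root of edgeR's F. The SE of a log2 ratio difference came from the pooled SD of the log2 ratios in the 2 groups of 4 libraries. Symbols, lengths and overlaps came from GENCODE M21 (99.47% of genes found) and promoters from RefSeq. Replicates differed by a chi-square of 4.26 to 15.4 per gene, so none was counted as a repeat deposit.

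The members and gene lists were chosen with earlier results of these data known, so no p was computed over the members as a set. Named genes are MAARS, every member, with values in each library for Psmb5, Psmb6, Psmb7 and, in each sub-complex, the called member with the smallest p and the member with the highest p, from each list the 2 with the smallest p, and the immunoproteasome genes. Further list genes (Nfe2l1, Nfe2l2, Mafg, Maff, Ubqln2, Uba1, Psme3, Psme4 and Psmf1) were named after their values were seen. Levels per kb of the principal transcript were also added after the data were seen. Paaf1 was not analysed here, and some other genes of the lists are not reported here. Alternatives were DESeq2, limma-voom, RLE and upper-quartile factors, total counts only, no filter, a mean count of at least 10, thinned counts, a robust prior, a loess offset on exonic length (span 0.3), each library left out, and stricter thresholds.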

Additional observations from a re-analysis of the deposited data

Results flagged for a closer look

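The 36 members, the 19 list genes taken by the naming rule and MAARS were each examined in both groups of 4 libraries (112 groups of values). Dixon's criterion for 4 values takes the gap to the nearest library over the whole range. By it a single library stood far from the other 3 of its group in 7 cases. Chance alone gives this in about 1 in 20 groups. In the control group these were Psmd9 in replicate 5, the highest at 42.5 CPM, and Psmc3 and Psmb6 in replicate 7, the lowest at 151 CPM and 116 CPM. In the MAARS gapmeR group they were Psmd11 in replicate 9, the lowest at 67.6 CPM, Psmb7 in replicate 13, the lowest at 91.0 CPM, and Psma7 and Psmb9 in replicate 13, the highest at 117 CPM and 51.0 CPM. Without MAARS gapmeR replicate 9, Psmd11 remained lower, and without MAARS gapmeR replicate 13, Psma7, Psmb7 and Psmb9 remained lower. Without control gapmeR replicate 7, Psmb6 remained lower (log2 fold change -0.17, edgeR adjusted p = 0.0157).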

How the results depend on the processing

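No paired analysis was possible because the groups share no replicate number. The members called lower were 28 with RLE factors, DESeq2, limma-voom, a robust prior, a mean count of at least 10 and thinned counts, 26 without a filter, 25 with a loess offset on exonic length, 23 with total counts only, 22 with upper-quartile factors and 26 to 28 when 1 library was left out. At an adjusted p under 0.01 they were 24. With a required log2 size of 0.5 or more they were 0 (28 lower and 0 higher at an adjusted p under 0.05, and 0 higher at an unadjusted p under 0.05). The members' median log2 fold change moved by more than the spread between libraries to -0.18 with upper-quartile factors, total counts only and the length offset, and lay between -0.28 and -0.21 without 1 library. The median of all genes also moved, from 0.008 with TMM factors to 0.071 with upper-quartile factors and 0.072 with total counts only. With the length offset it was 0.0012.

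Of the 18 fits of each member, 648 in all, 605 kept direction and side of the threshold, 24 lost a call, 2 gained one and 17 changed sign, all of these in members that were not called. Under upper-quartile factors and total counts only the estimates turned to 0.029 and 0.029 for Psmd5, 0.050 and 0.051 for Psmc3, 0.014 and 0.014 for Psmd1, 0.023 and 0.024 for Psmd13 and 0.014 and 0.015 for Psmd6. Psmc3 also turned to 0.027 with the length offset. With 1 library left out the estimates ranged from -0.076 to 0.0069 for Psmd5, -0.057 to 0.015 for Psmc3 and -0.24 to 0.014 for Psmc3ip, being above 0 without control gapmeR replicate 2 (Psmd5), MAARS gapmeR replicate 9 (Psmc3, Psmc3ip) or MAARS gapmeR replicate 15 (Psmd5, Psmc3 and Psmc3ip). The cause was not tested.

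The pathway genes called higher, 7 by edgeR with TMM factors, were 4 at an adjusted p under 0.01 and 1 with that required size, and those called lower, 35 by edgeR with TMM factors, were 9 with it. Over all genes, 2782 higher and 3137 lower became, when the adjusted p had to be under 0.01, 1740 higher and 2214 lower, and 1169 higher and 1020 lower with the required size. With 1 library left out the log2 ratio differences ranged from -0.95 to -0.81 for Psmb8 over Psmb5, -1.14 to -0.96 for Psmb9 over Psmb6 and -1.25 to -1.08 for Psmb10 over Psmb7, each with an exact p of 0.0571, the smallest that 4 against 3 libraries can give. MAARS stayed lower in every fit. Changes of Psma8 and Psmc3ip, at 1 to 4 CPM, are limited by depth.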
